A study of Mus musculus with 12 samples.

Results

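The F-box protein genes were examined in mouse oocytes that had or lacked the zygote arrest proteins ZAR1 and ZAR2. All rows of the expression table whose symbol begins with Fbxl, Fbxo or Fbxw followed by a digit were taken, with Fbxo43 left out, which gave 75 of 23230 rows. They were 18 Fbxl genes, 36 Fbxo genes, 8 Fbxw genes outside the series Fbxw13 to Fbxw28 and 13 genes within that series, which are called the oocyte Fbxw genes here. Of the 75 genes, 64 reached 1 FPKM in at least 1 library and were tested, namely all 13 oocyte Fbxw genes and 51 of the 62 others. Fbxo44 was listed at 0 in every library.

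An F-box protein is the substrate receptor of an SCF ubiquitin ligase. Its F-box docks on the adaptor SKP1, which is held by the scaffold CUL1 together with the RING protein RBX1, and the rest of the protein selects the substrate to be ubiquitinated. The letter after Fbx in the symbol names this substrate-binding part, leucine-rich repeats for Fbxl, WD40 repeats for Fbxw and other folds for Fbxo. The mouse carries an expanded family of Fbxw genes known for expression in oocytes. ZAR1 and ZAR2 are RNA-binding proteins of the oocyte, and the comparisons ask how maternal messages differ without them before and after meiotic maturation.

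Wild-type (WT) and Zar1/2-null oocytes of a C57BL6/ICR hybrid background were sequenced at 3 stages. Growing oocytes came from females of 13.5 days by the labels, fully grown germinal vesicle (GV) oocytes from females of 21 days at 44 h after PMSG, and ovulated (MII) oocytes were taken 16 h after hCG. Each of the 6 groups had 2 libraries of 10 oocytes. The knockouts were made with CRISPR/Cas9 and were constitutive, so that every cell of the null females carried the mutations. For null oocytes the name MII gives the hour of collection, and the labels do not record the meiotic stage that each oocyte had reached. The authors reported ovulated null oocytes to be arrested in metaphase I or at telophase of meiosis I. Genotype and meiotic stage therefore cannot be told apart in the MII comparisons. Nothing in the sources used here says that the libraries of a group came from separate females, so that p-values measure only the spread between these libraries, which may be technical. Fewer intact oocytes in a pool and less RNA per oocyte cannot be told apart.

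The values were FPKM multiplied by a factor from the ERCC spike-in, synthetic RNAs added in known amount, so that they stand for a level per library of equal oocyte number. Both WT growing libraries had a factor of 1, so that each replicate number had been scaled to its own WT growing library. The factors were 0.779 to 0.862 in null growing, 0.697 to 0.836 in WT GV, 0.533 to 0.583 in null GV, 0.225 to 0.228 in WT MII and 0.252 to 0.283 in null MII libraries. The row Zar1l, which is Zar2, stood at 639 and 644 FPKM in WT and 17.5 and 13.2 FPKM in null growing oocytes. Zar1 was still read at 407 and 459.9 FPKM in null against 603 and 725 FPKM in WT growing oocytes, so that this row does not check the genotype. The 9 oocyte markers summed to between 3408 and 18923 FPKM over all libraries. The 10 granulosa and cumulus markers summed to at most 24.7 FPKM, the 5 immune markers to at most 3.19 FPKM and the 5 epithelial and oviduct markers to at most 30.3 FPKM, and these sums moved with genotype. The granulosa and cumulus sum was 20.6 to 24.7 FPKM in WT and 5.78 to 10.5 FPKM in null growing, 12.3 to 13.96 FPKM and 9.76 to 11.6 FPKM in GV and 3.88 to 4.02 FPKM and 6.01 to 7.19 FPKM in MII libraries. The epithelial sum was 28.3 to 30.3 FPKM and 18.6 to 20.3 FPKM, 26.02 to 27.96 FPKM and 14.1 to 17.4 FPKM, and 14.6 to 15.4 FPKM and 16.3 to 17.8 FPKM, and the immune sum in growing libraries 0.498 to 1.28 FPKM and 3.06 to 3.19 FPKM. A sum can rest largely on 1 gene. In WT growing libraries Cyp19a1 gave 19.04 and 16.7 FPKM of the granulosa sum and Cdh1 27.5 and 29.4 FPKM of the epithelial sum. Cd68 gave 3.02 and 3.07 FPKM of the immune sum in null growing libraries. Within the granulosa list Inha went against the sum at the GV stage. It was at 0.410 and 0.512 FPKM in WT and 1.99 and 1.73 FPKM in null libraries. A sum therefore does not measure an amount of such cells. The part of the markers in the results was not tested. At MII the oocyte markers summed to 3408 to 3998 FPKM in WT and 6745 to 7993 FPKM in null libraries.

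In the mm9 annotation, 12 of the 13 oocyte Fbxw genes lay side by side on chromosome 9 between 109041968 and 109648603, all on the minus strand. In this stretch of 607 kb they were the only 12 coding genes among 15 annotated genes. From the lower coordinate, their order was Fbxw21, Fbxw13, Fbxw20, Fbxw14, Fbxw28, Fbxw22, Fbxw16, Fbxw19, Fbxw15, Fbxw24, Fbxw18 and Fbxw26, with gaps of 14.9 to 56.7 kb. Fbxw17 lay apart, on chromosome 13 from 50513246 to 50529138 on the plus strand. The 62 other F-box genes were spread over 19 chromosomes.

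The 13 coding sequences had nearly one length, 1395 to 1410 bases, and pairs of them were identical at 53.3% to 99.1% of aligned positions (median 83.1% over 78 pairs). Fbxw14 and Fbxw28 were the closest pair. Of the 50-base words in their transcripts, 67.5% for Fbxw14 and 67.3% for Fbxw28 also occurred elsewhere. Reads had been trimmed to 50 bases and those mapping to 1 place were counted, so that the levels of Fbxw14 and Fbxw28, and the split between them, are uncertain. For the 10 other chromosome 9 genes 5.77% to 13.1% of the words were shared, and for Fbxw17 none. Among the other F-box genes the median was 0, and Fbxw10 with 73.1% and Fbxo34 with 29.5% are uncertain too.

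The annotated 3′ untranslated regions of the oocyte Fbxw genes were short, with a median of 59 bases (46 to 390), against 686.5 bases for the other F-box genes and 709 bases over 19485 genes. The cytoplasmic polyadenylation element, searched as TTTTAT or TTTTAAT, lay in 1 of 13, that of Fbxw17, and in 35 of 60 of the other F-box genes. These counts were not corrected for the length searched, and a short region has fewer places for a match. The annotated lengths are uncertain too, with 348 bases for Fbxw14 and 53 bases for the near-identical Fbxw28. A polyadenylation signal, AATAAA or ATTAAA, was present in all 13.

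Upstream sequences are shown for the oocyte Fbxw genes because 12 of the 13 lie in 1 array and stood together above the other F-box genes in WT growing oocytes, with Fbxw17, at a lower level, shown beside them. RefSeq promoters on GRCm38.p6, a later build than that of the files, were matched for 11 of the 13, and not for Fbxw13 or Fbxw22. Among the 10 on chromosome 9, the 250 bases before the annotated start were identical at 60.7% to 96.4% of positions (median 83.2% over 45 pairs), and those of Fbxw17 matched them at 46.2% to 51.5%. Motifs were searched on both strands. The E-box CANNTG, bound by basic helix-loop-helix factors such as the oocyte factor FIGLA, was found in 11 of 11 promoters of oocyte Fbxw genes, in 32 of 46 of the other F-box genes and in 66.05% of all 27018. The form CAGCTG, which every CANNTG search also counts and which was singled out after the sequences were seen, was found in 11 of 11, in 8 of 46 and in 12.77% of all. The chromosome 9 promoters are near copies of each other, so that these are not separate observations. TATAAA was found in 0 of 11 (12.97% of all), CCAAT in 1 (34.47%), GGGCGG in 2 (32.94%), and TAATTA and TAATTG, letters bound by the oocyte factor NOBOX, in 0 (4.904% and 7.343%). A match describes letters and shows no binding. The lines give the 140 bases before the outermost RefSeq start, 5′ to 3′ on the strand of the gene, with E-boxes in capitals. Fbxw24 had the highest level, Fbxw15 and Fbxw21 kept little at MII, Fbxw14 and Fbxw28 are the near-identical pair and Fbxw17 is the gene away from the array. In that order the windows are chr9:109626060-109626199, chr9:109568263-109568402, chr9:109162023-109162162, chr9:109287730-109287869 and chr9:109339660-109339799 on the minus strand and chr13:50417695-50417834 on the plus strand.
Fbxw24: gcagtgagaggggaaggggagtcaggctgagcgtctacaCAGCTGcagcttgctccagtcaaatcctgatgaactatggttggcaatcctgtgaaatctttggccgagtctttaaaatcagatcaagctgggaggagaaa
Fbxw15: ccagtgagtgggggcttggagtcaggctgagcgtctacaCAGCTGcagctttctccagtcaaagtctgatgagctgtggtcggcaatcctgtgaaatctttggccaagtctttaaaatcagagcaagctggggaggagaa
Fbxw21: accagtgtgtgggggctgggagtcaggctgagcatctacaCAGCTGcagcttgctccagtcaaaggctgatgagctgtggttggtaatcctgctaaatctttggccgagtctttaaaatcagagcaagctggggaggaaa
Fbxw14: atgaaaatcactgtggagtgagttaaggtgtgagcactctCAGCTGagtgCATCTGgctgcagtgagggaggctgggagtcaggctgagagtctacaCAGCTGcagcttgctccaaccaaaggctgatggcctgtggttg
Fbxw28: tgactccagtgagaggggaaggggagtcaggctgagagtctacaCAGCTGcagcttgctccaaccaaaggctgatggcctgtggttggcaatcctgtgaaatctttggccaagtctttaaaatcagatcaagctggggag
Fbxw17: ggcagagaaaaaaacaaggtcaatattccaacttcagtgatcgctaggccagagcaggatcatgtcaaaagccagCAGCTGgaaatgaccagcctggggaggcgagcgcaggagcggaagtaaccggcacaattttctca
In the 5 chromosome 9 windows a CAGCTG follows the letters ctaca, which do not precede the CAGCTG of Fbxw17. The array as a whole does not share them, since Fbxw16, not printed, has cttca in that place.

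The oocyte Fbxw genes made up most of the F-box message. They held 90.9% ± 0.979 (SD, n = 2) of the FPKM summed over all 75 genes in WT growing oocytes, 92.1% ± 0.810 in WT GV and 86.7% ± 1.02 in WT MII oocytes. In null oocytes the shares were 89.1% ± 0.837, 91.6% ± 1.17 and 86.3% ± 1.81. Of the FPKM of all 23230 rows they held 1.97% ± 0.133 in WT growing, 1.95% ± 0.177 in WT GV and 1.30% ± 0.0711 in WT MII oocytes, and 1.29% ± 0.110 in null MII oocytes. Their summed level was 12518 ± 912 FPKM in WT growing, 10355 ± 2265 FPKM in WT GV and 1621 ± 154 FPKM in WT MII oocytes, against 9501 ± 1415, 7901 ± 344 and 2507 ± 518 FPKM in null oocytes.

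FPKM is a level per transcript length and can be set side by side between genes only with a limit here. Reads of shared words were not counted, so that genes lost unequal parts of their level. The places of Fbxw14 and Fbxw28 in the order are therefore uncertain. In WT growing oocytes Fbxw24 had the highest level, with 2853 and 2467 FPKM. Fbxw18 with 1743 and 1596 FPKM and Fbxw15 with 1677 and 1502 FPKM came next and overlapped each other. Fbxw21 stood at 1207 and 1041 FPKM, Fbxw16 at 1147 and 1084 FPKM and Fbxw28 at 1135 and 1059 FPKM. These 3 neighbours in the order overlapped as well. Fbxw14 (876 and 805 FPKM) and Fbxw19 (884 and 785 FPKM) overlapped, and below them came Fbxw26 (509 and 477 FPKM), Fbxw20 (459 and 462 FPKM), Fbxw22 (370.1 and 319 FPKM) and Fbxw13 (287 and 258 FPKM) with no overlap between neighbours. Fbxw17, the gene on chromosome 13, had 14.8 and 18.7 FPKM, far under the 12 genes of the array. The highest mean among the 62 other F-box genes was 155 FPKM (Fbxo5) and their median 5.14 FPKM.

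**Figure D1:**
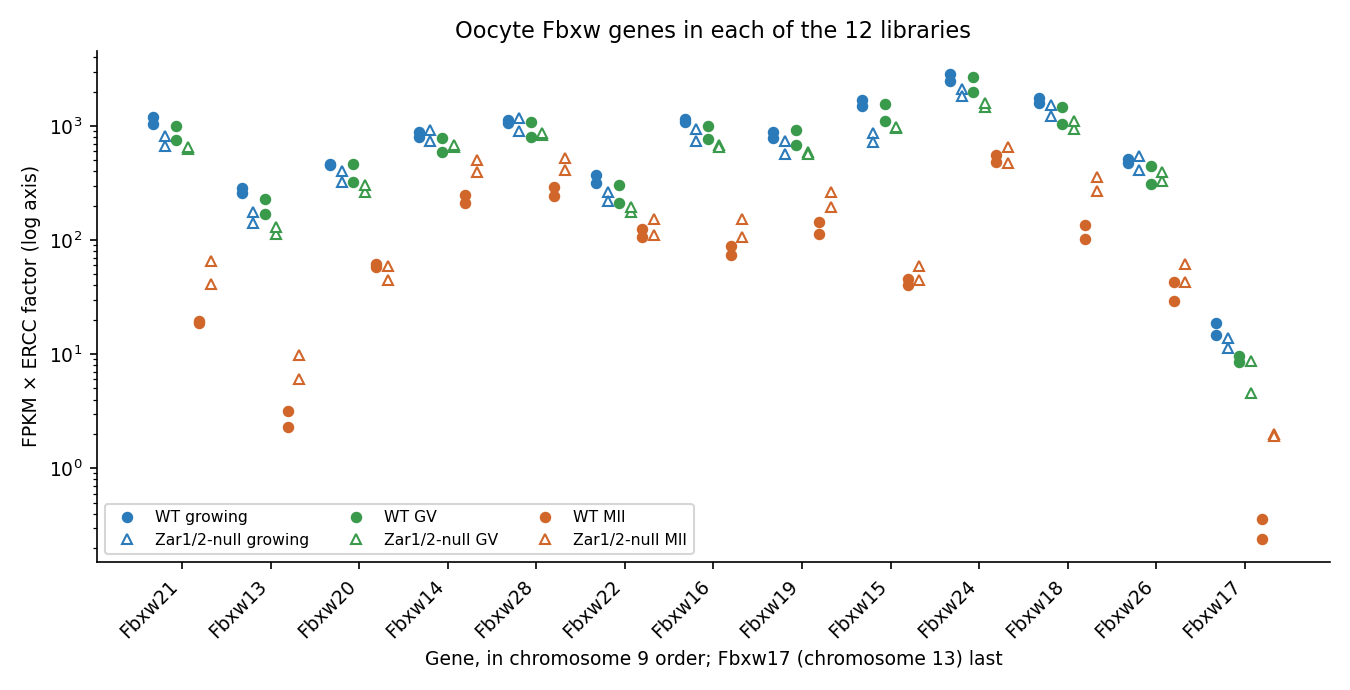
FPKM times the ERCC factor (log axis) of the 13 oocyte Fbxw genes in each of the 12 libraries, in chromosome 9 order with Fbxw17 last. Filled circles are WT and open triangles null libraries, in blue for growing, green for GV and orange for MII oocytes. Fbxw24 is highest in WT growing libraries, at 2853 and 2467 FPKM, Fbxw17 has 14.8 and 18.7 FPKM there, and both WT MII libraries lie below the WT growing and GV libraries for all 13 genes.

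From the growing to the GV stage of WT oocytes, 1 of the 13 oocyte Fbxw genes fell and none rose. Fbxw17 went from 14.8 and 18.7 FPKM to 9.56 and 8.52 FPKM, with no overlap (−0.82 ± 0.23 SE on the log2(FPKM + 1) scale, adjusted p = 0.0217 by limma over all 11502 rows tested). This call was lost without WT growing library 2 or either WT GV library (adjusted p up to 0.148). Of all 64 F-box genes 20 fell and 0 rose, where 28.7% of all rows fell and 2.77% rose. Here and in the limma comparisons that follow, a direction with 0 calls among the oocyte Fbxw genes or all 64 F-box genes also had 0 at an unadjusted p under 0.05. By the ratio of group means, with means under 1 FPKM set to 1, 0 of 64 passed 3-fold, against 1.36% of rows. The median log2 change was −0.34 for the oocyte Fbxw genes, −0.39 for the other F-box genes and −0.29 for all rows. Without the ERCC factors, or with library medians set equal, 0 of 64 F-box genes passed (10 and 8 at an unadjusted p under 0.05), and the median of all rows moved to 0.02 and −0.01.

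From GV to MII all 13 oocyte Fbxw genes fell in WT oocytes and 12 of 13 in null oocytes, by very unequal amounts. Of the 64 F-box genes 63 fell in WT and 42 in null oocytes, and 0 rose. The backgrounds were 93.4% of rows lower and 0.104% higher in WT, and 68.7% lower and 0.209% higher in null oocytes, so that a fall sets no F-box gene apart. Past 3-fold were 11 of 13 oocyte Fbxw genes and 30 of 64 F-box genes in WT (44.3% of rows), and 8 and 22 in null oocytes (27.7%). The median log2 change in WT was −2.95 for the oocyte Fbxw genes, −1.26 for the other F-box genes and −1.28 for all rows, and in null oocytes −1.73, −0.61 and −0.72. Genes near or under 1 FPKM have little room to fall on the log2(FPKM + 1) scale used. As plain ratios of GV over MII means, the medians were 10.5 for the 13 and 4.72 for the others in WT oocytes. In null oocytes they were 3.42 and 2.45. Among rows with a mean of at least 5 FPKM, the median log2 change was −2.03 in WT and −1.19 in null oocytes. The libraries were primed with oligo-dT, so that fewer transcripts and a shorter poly(A) tail cannot be told apart.

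Fbxw13 fell furthest in WT oocytes, from 229 and 169 FPKM at the GV stage to 3.14 and 2.29 FPKM at MII, which left 1.36% of the GV mean (log2 change −5.74 ± 0.23 SE, adjusted p = 1.23e-09). Its neighbour Fbxw21 fell from 1002 and 752 FPKM to 18.9 and 19.5 FPKM, which left 2.19% (−5.43 ± 0.22, adjusted p = 1.42e-09). Fbxw15 fell from 1571 and 1107 FPKM to 45.3 and 40.2 FPKM, which left 3.19% (−4.92 ± 0.20, adjusted p = 1.42e-09). The stages did not overlap for these 3 genes. At the other end Fbxw22 went from 301 and 210.4 FPKM to 126 and 106 FPKM and kept 45.2%, and Fbxw14 went from 780.5 and 597 FPKM to 249 and 211 FPKM and kept 33.4%. Fbxw24 went from 2684 and 1970.2 FPKM to 555 and 481 FPKM and kept 22.3%, although it lies next to Fbxw15. The 7 others kept between 3.33% (Fbxw17) and 28.3% (Fbxw28).

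**Figure D2:**
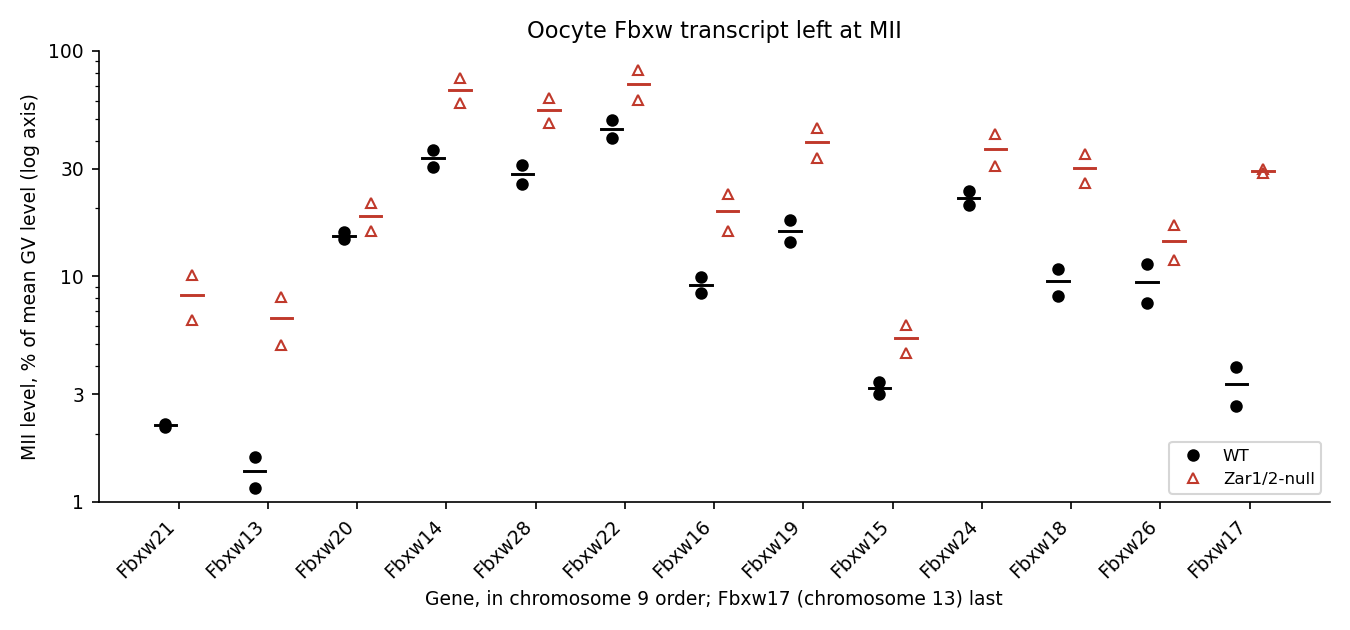
Level in each MII library as a percentage of the mean GV level of the same genotype (log axis), for the 13 oocyte Fbxw genes. Black circles are WT and red triangles null libraries, and bars are means. WT means range from 1.36% (Fbxw13) to 45.2% (Fbxw22), null means from 5.34% (Fbxw15) to 71.2% (Fbxw22), and the null mean is above the WT mean for each of the 13. As deposited, the median log2 change of all rows was also a smaller fall in null oocytes, −0.72 against −1.28 in WT. With library medians set equal, the median null minus WT difference in log2 change was 0.03 for the 13 and −0.16 for all rows.

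The size of these changes, and for part of the genes their direction, rests on the ERCC factors. Without them the median log2 change of all rows moved from −1.28 to −0.43 in WT and from −0.72 to −0.28 in null oocytes, and with library medians set equal it was 0.14 in both. In WT oocytes 10 oocyte Fbxw genes were then lower and 1 higher without the factors, and 7 lower and 4 higher with equal medians. In null oocytes the counts were 9 lower and 2 higher, and 6 lower and 3 higher. Over the 64 F-box genes they were 33 lower and 12 higher, then 19 and 28, in WT, and 28 and 18, then 20 and 28, in null oocytes. Set against the median of all rows in the same scaling, 12 of 13 oocyte Fbxw genes fell more than the median in WT as deposited (all but Fbxw22), 9 without the factors and 9 with equal medians.

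The share of each gene in the sum of the 13 does not depend on the factor of a library. In WT oocytes Fbxw24 took 22.4% and 22.5% of the sum in GV and 32.1% and 31.8% in MII libraries. Fbxw14 took 6.53% and 6.82% and then 14.4% and 13.97%, and Fbxw28 9.08% and 9.18% and then 16.9% and 15.997%. The shares of Fbxw15, 13.1% and 12.6% at GV and 2.62% and 2.66% at MII, and of Fbxw21, 8.38% and 8.59% and 1.09% and 1.29%, lay the other way. None of these 5 shares overlapped between the stages, while that of Fbxw20 did, with 3.90% and 3.70% and 3.33% and 4.11%. With 2 libraries against 2 an exact permutation test cannot go below p = 0.333, and no test of the shares is given.

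In growing oocytes, null and WT differed in 2 of the 13 oocyte Fbxw genes, and both were lower in null. Fbxw15 stood at 1677 and 1502 FPKM in WT and 863 and 719.6 FPKM in null oocytes without overlap (log2 fold change −1.01 ± 0.20 SE, adjusted p = 0.00311), a WT mean 2.01 times the null mean. It was called with each library left out in turn and under both other scalings. Fbxw13 stood at 287 and 258 FPKM in WT and 175 and 139.8 FPKM in null oocytes (−0.80 ± 0.23, adjusted p = 0.0216), a call that was lost without either WT growing library or null growing library 2 (adjusted p up to 0.155) and under both other scalings. With the replicate number as a block in the fit, 5 of the 13 were lower, with Fbxw21, Fbxw22 and Fbxw24 added (adjusted p = 0.0216, 0.0277 and 0.0330). The changes of the 11 others ran from −0.60 (Fbxw21) to −0.03 (Fbxw14). Among the granulosa markers, whose sum was lower in null growing libraries, Cyp19a1, the aromatase gene, was at 19.04 and 16.7 FPKM in WT and 7.72 and 2.53 FPKM in null libraries (−1.76 ± 0.32, adjusted p = 0.00177). Of the sum of the 13 genes, Fbxw15 took 12.7% and 12.6% in WT and 8.21% and 8.47% in null growing oocytes. Of all 64 F-box genes 13 were lower and 5 higher, where 24.4% and 10.6% of all rows were, and 2 passed 3-fold, against 4.52% of rows. Without the ERCC factors 3 of the 64 were lower and 10 higher, and with equal medians 5 lower and 6 higher, with the median of all rows moving from −0.16 to 0.08 and −0.01.

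At the GV stage Fbxw13 and Fbxw24 were lower in null oocytes and none of the 13 was higher. Fbxw13 stood at 229 and 169 FPKM in WT and 113 and 131 FPKM in null oocytes (−0.69 ± 0.23, adjusted p = 0.0335), and Fbxw24 at 2684 and 1970.2 FPKM in WT and 1479 and 1593 FPKM in null oocytes (−0.58 ± 0.21, adjusted p = 0.0399). The genotypes did not overlap for either gene. The Fbxw13 call was lost without WT GV library 1 or either null GV library (adjusted p up to 0.241) and the Fbxw24 call without either WT growing library, null growing library 2, WT GV library 1, either null GV library or either WT MII library (adjusted p up to 0.291). Both were lost under the other scalings, and with equal medians the Fbxw24 change was 0.01. Without the factors 1 of the 13 was higher and 0 lower, the higher one being Fbxw14 (log2 change 0.43, adjusted p = 0.0393), and with equal medians 0 were called. With the replicate block 5 of the 13 were lower, with Fbxw15, Fbxw19 and Fbxw22 added (adjusted p = 0.0240, 0.0166 and 0.0417). Fbxw15, at 1571 and 1107 FPKM in WT and 960.1 and 970.3 FPKM in null oocytes, was not called in the fit without the block (−0.45 ± 0.20, adjusted p = 0.0930). The median change was −0.44 for the oocyte Fbxw genes, −0.44 for the other F-box genes and −0.38 for all rows. Of all 64 F-box genes 25 were lower and 1 higher, where 40.6% and 2.83% of rows were, and 3 passed 3-fold, against 4.66%. Without the factors 6 of the 64 were lower and 4 higher, and with equal medians 4 and 4, with the median of all rows at −0.03 and 0.07.

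**Figure D3:**
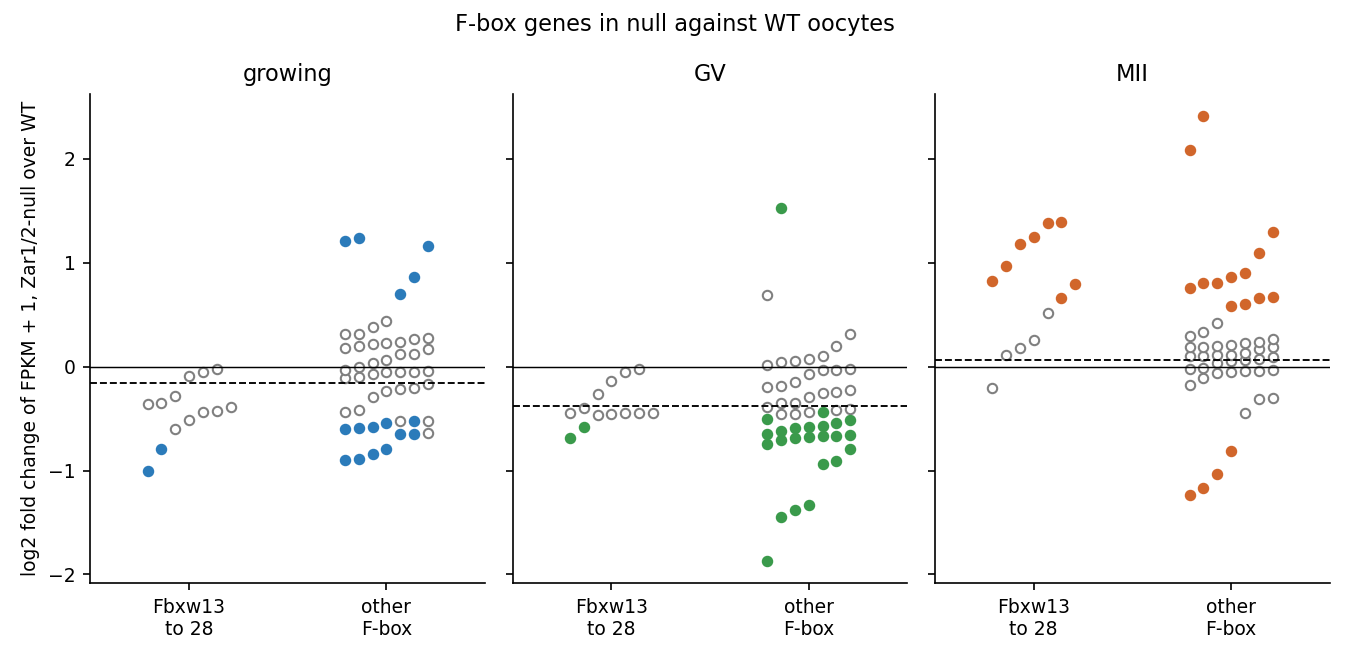
Log2 fold change of FPKM + 1, null over WT, at each stage for the 13 oocyte Fbxw genes and the 51 other F-box genes tested. Each circle is a gene, filled where limma called it at an adjusted p under 0.05, and the dashed line is the median of all 11502 rows. The filled oocyte Fbxw genes are 2 of 13 below 0 in growing and in GV oocytes and 8 of 13 above 0 at MII.

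In ovulated oocytes 8 of the 13 oocyte Fbxw genes were higher in null than in WT and none was lower. The median log2 fold change was 0.79 for the 13, 0.13 for the other F-box genes and 0.06 for all rows. On the log2(FPKM + 1) scale this understates differences of genes near or under 1 FPKM, as many of the others were. As plain ratios of null over WT means, the median was 1.74 for the 13 and 1.42 for the 58 others with a ratio. Fbxw18 stood at 135 and 102 FPKM in WT and 358 and 268 FPKM in null oocytes (1.39 ± 0.23, adjusted p = 0.000616), Fbxw21 at 18.9 and 19.5 FPKM and 64.9 and 40.9 FPKM (1.38 ± 0.22, adjusted p = 0.000612), and Fbxw13 at 3.14 and 2.29 FPKM and 9.85 and 6.07 FPKM (1.25 ± 0.23, adjusted p = 0.00159). The null means were 2.64, 2.76 and 2.93 times the WT means. Fbxw17 stood at 0.360 and 0.241 FPKM in WT and 1.98 and 1.90 FPKM in null oocytes (1.18 ± 0.23, adjusted p = 0.00199), a level so low that the log2(FPKM + 1) scale understates its change. The near-identical genes Fbxw14 (249 and 211 FPKM in WT, 508 and 397 FPKM in null) and Fbxw28 (293 and 242 FPKM in WT, 523 and 407 FPKM in null) were higher by 0.96 ± 0.19, adjusted p = 0.00257 and 0.79 ± 0.21, adjusted p = 0.0116. Fbxw19 (142 and 114 FPKM in WT, 265 and 195 FPKM in null) and Fbxw16 (74.4 and 88.03 FPKM in WT, 154 and 107 FPKM in null) completed the 8, at 0.83 ± 0.22, adjusted p = 0.0118 and 0.66 ± 0.21, adjusted p = 0.0327. WT and null libraries overlapped for none of the 8. Here and elsewhere, a lack of overlap in called genes adds no support, since the calls came from these same libraries. The calls of Fbxw13, Fbxw14, Fbxw17, Fbxw18 and Fbxw21 held with each library left out and under both other scalings. That of Fbxw28 was lost without WT MII library 2 or null MII library 1 (adjusted p up to 0.0990), that of Fbxw19 without WT MII library 2 or null MII library 1 (adjusted p up to 0.108) and that of Fbxw16 without either WT growing library, either WT MII library or null MII library 1 (adjusted p up to 0.262), and all 3 were lost with equal medians.

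The 5 others were not called at MII. Fbxw24 was at 555 and 481 FPKM in WT and 657 and 476 FPKM in null oocytes (0.11 ± 0.21, adjusted p = 0.769), Fbxw20 at 57.6 and 62.1 FPKM and 59.8 and 44.7 FPKM (−0.21 ± 0.21, adjusted p = 0.535) and Fbxw15 at 45.3 and 40.2 FPKM and 58.9 and 44.2 FPKM (0.25 ± 0.20, adjusted p = 0.410), with overlap in each. Fbxw22 gave 0.17 ± 0.21 and Fbxw26 0.52 ± 0.26. Of all 64 F-box genes 21 were higher and 4 lower, where 21.5% and 10.3% of rows were, and 4 passed 3-fold, against 8.82% of rows, none of these an oocyte Fbxw gene. Among rows with a mean of at least 5 FPKM, which all 13 oocyte Fbxw genes reached, 2003 of 5966 were higher and 920 lower. Without the ERCC factors 8 oocyte Fbxw genes were higher and 1 lower, and with equal medians 5 and 1, the lower one being Fbxw20 in both. Over the 64 F-box genes these counts were 22 higher and 8 lower, and 16 and 11. The make-up of the sum differed too. Fbxw24 took 32.1% and 31.8% of it in WT and 22.9% and 22.2% in null MII oocytes, and Fbxw18 7.82% and 6.78% and 12.5% and 12.5%.

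**Figure D4:**
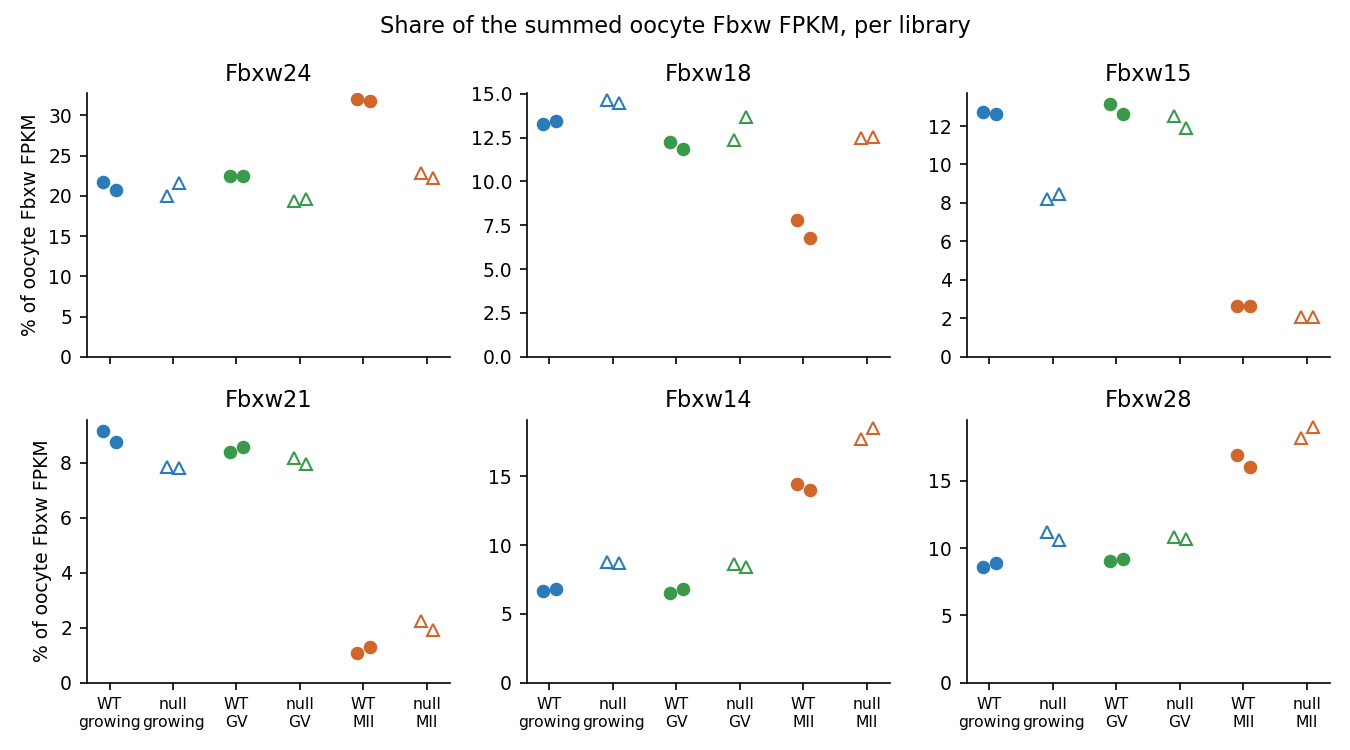
Share of the FPKM summed over the 13 oocyte Fbxw genes (percent, axes from 0) in each library, for 6 of them. Filled circles are WT and open triangles null libraries, in blue for growing, green for GV and orange for MII oocytes. Fbxw24 takes 32.1% and 31.8% in WT MII and 22.9% and 22.2% in null MII libraries, and Fbxw15 13.1% and 12.6% in WT GV and 2.62% and 2.66% in WT MII libraries.

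Whether maturation differed between the genotypes was tested by the interaction, the null change from GV to MII minus the WT change, which uses the same libraries as the comparisons above. A positive value is a smaller fall in null oocytes on the log2(FPKM + 1) scale, on which genes near or under 1 FPKM have little room to fall. It was positive and passed for 8 of 13 oocyte Fbxw genes and 28 of 64 F-box genes, where 33.9% of rows did, and negative for 2 of 64, where 0.643% of rows were. The median was 0.99 for the oocyte Fbxw genes, 0.61 for the other F-box genes and 0.48 for all rows. Among rows with a mean of at least 5 FPKM, 2706 of 5966 passed as positive and 33 as negative, with a median of 0.61. Fbxw13 kept 1.36% in WT and 6.53% in null oocytes (1.94 ± 0.33, adjusted p = 0.00115), Fbxw21 2.19% and 8.29% (1.82 ± 0.32, adjusted p = 0.00132), Fbxw18 9.51% and 30.4% (1.65 ± 0.32, adjusted p = 0.00264) and Fbxw17 3.33% and 29.3% (1.63 ± 0.32, adjusted p = 0.00301). These were the 4 largest values of the 13. Fbxw19, Fbxw16, Fbxw14 and Fbxw28 passed as well, at 1.28, 1.05, 0.99 and 0.93. The Fbxw16 call was lost without WT GV library 1, WT MII library 1 or null MII library 1 (adjusted p up to 0.0837), that of Fbxw14 without WT GV library 1, null GV library 1, WT MII library 2 or null MII library 1 (adjusted p up to 0.0782) and that of Fbxw28 without WT GV library 1, either null GV library, WT MII library 2 or null MII library 1 (adjusted p up to 0.122). Fbxw20 was nearest to 0 at 0.26 ± 0.29. With the replicate block 10 of the 13 passed, with Fbxw15 and Fbxw24 added (adjusted p = 0.0201 and 0.0206). Without the factors 4 oocyte Fbxw genes passed as higher, with 9 of 64 F-box genes higher and 2 lower, and with equal medians 3, with 7 higher and 3 lower. The median of all rows was then 0.03 and −0.16. Fbxw13, Fbxw17 and Fbxw21 passed under each scaling.

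Outside the oocyte Fbxw genes, 5 of the 62 F-box genes averaged 50 FPKM or more in WT GV oocytes, 13 had 10 to 50 FPKM, 29 had 1 to 10 FPKM and 15 were under 1 FPKM. The highest were Fbxo34 with 99.9 and 106 FPKM and Fbxw4, the gene of dactylin, with 103 and 90.7 FPKM. At MII Fbxo34 was at 13.9 and 16.7 FPKM in WT and 21.8 and 24.8 FPKM in null oocytes (0.58 ± 0.16, adjusted p = 0.0169). This call was lost without WT MII library 1 or null MII library 2 (adjusted p up to 0.127) and under both other scalings. Fbxw4 was at 38.9 and 33.6 FPKM in WT and 68.2 and 59.9 FPKM in null MII oocytes (0.81 ± 0.22, adjusted p = 0.0167), and its call was lost without WT MII library 2 or null MII library 1 (adjusted p up to 0.108) and with equal medians. Fbxo8, whose protein has a Sec7 domain, and Fbxo11, a receptor for BCL6, were at 37.05 and 28.9 FPKM and at 16.95 and 17.2 FPKM in WT MII oocytes. Neither was called at MII, with −0.02 ± 0.24 and −0.06 ± 0.17.

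Of the 6 cell cycle genes 5 were tested, all but Fbxo4. In null oocytes 1 was lower at the growing stage, 2 were lower at the GV stage and 1 was higher at MII, and in WT oocytes 3 fell during growth and 5 during maturation. Over all rows 24.4%, 40.6% and 21.5% were called so in null oocytes, and 28.7% and 93.4% fell in WT. Fbxo5 encodes EMI1, the inhibitor of the anaphase-promoting complex. It stood at 162 and 149 FPKM in WT and 98.4 and 80.3 FPKM in null growing oocytes (−0.80 ± 0.23, adjusted p = 0.0188) and at 109 and 81.5 FPKM and 50.8 and 67.7 FPKM at the GV stage (−0.67 ± 0.23, adjusted p = 0.0333). The genotypes did not overlap at either stage, but the first call was lost without either WT growing library or null growing library 2 (adjusted p up to 0.138) and the second without WT GV library 1 or null GV library 1 (adjusted p up to 0.235). At MII its libraries overlapped, at 9.25 and 13.9 FPKM and 9.95 and 8.06 FPKM. Fbxw11, which encodes beta-TrCP2, was at 9.51 and 8.06 FPKM in WT and 4.22 and 4.17 FPKM in null GV oocytes (−0.91 ± 0.14, adjusted p = 0.000515), a call lost with equal medians. Fbxw5, whose protein targets the centriole protein SAS-6, was at 0.427 and 0.707 FPKM in WT and 1.55 and 2.16 FPKM in null MII oocytes (0.86 ± 0.20, adjusted p = 0.00542), a call lost without WT MII library 1 or null MII library 2 (adjusted p up to 0.0600). Fbxw7, the receptor for cyclin E, was at 2.69 and 2.76 FPKM in WT GV oocytes, and Fbxo31, a receptor for cyclin D1, at 2.72 and 2.78 FPKM. Neither was called in null oocytes at any stage.

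Fbxl21 encodes a receptor for cryptochromes, the repressors of the circadian clock. It was at 1.42 and 1.10 FPKM in WT and 0.553 and 0.541 FPKM in null GV oocytes, without overlap (−0.54 ± 0.13, adjusted p = 0.00673), a call lost under both other scalings.

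Of the 3 genes of mitochondria and iron, 1 was lower in null GV and 1 higher in null MII oocytes, where 40.6% and 21.5% of all rows were. Fbxo7, mutated in a form of Parkinson's disease, was at 2.99 and 2.82 FPKM in WT and 9.57 and 7.71 FPKM in null MII oocytes without overlap (1.30 ± 0.24, adjusted p = 0.00155). This was a mean 2.97 times as high, called with each library left out and under all 3 scalings. Fbxl4, a mitochondrial gene, was at 7.03 and 5.38 FPKM in WT and 3.14 and 4.005 FPKM in null GV oocytes (−0.65 ± 0.16, adjusted p = 0.00707), a call lost without WT GV library 1 (adjusted p = 0.0711) and under both other scalings. Fbxl5, the receptor for iron-regulatory proteins, was not called in null oocytes at any stage. During WT growth it went from 70.3 and 70.4 FPKM to 49.1 and 34.6 FPKM (−0.76 ± 0.20, adjusted p = 0.0163), a call lost without either WT growing library or WT GV library 2 (adjusted p up to 0.137) and under both other scalings.

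Of the 5 sugar-binding F-box genes, whose proteins recognise glycoproteins, 1 passed the filter. This was Fbxo17, which fell from 4.39 and 7.22 FPKM to 1.92 and 2.36 FPKM during WT growth (−1.09 ± 0.25, adjusted p = 0.0105) and was not called in null oocytes. The fall was lost without WT growing library 2 or either WT GV library (adjusted p up to 0.0939) and under both other scalings. Fbxo2, Fbxo6 and Fbxo27 stayed at or under 0.616 FPKM in every library. Of the 3 germline and pluripotency genes Fbxo24 stayed at or under 0.0112 FPKM and was not tested. Fbxo15, a marker of embryonic stem cells, was at 6.50 and 6.18 FPKM in WT and 4.002 and 2.11 FPKM in null growing oocytes (−0.90 ± 0.23, adjusted p = 0.0116), a call lost without either WT growing library or null growing library 2 (adjusted p up to 0.124) and under both other scalings. Fbxo47, a gene of meiosis, was at 5.09 and 2.81 FPKM in WT GV and 0.0296 and 0.188 FPKM in WT MII oocytes (−2.12 ± 0.24, adjusted p = 6.50e-06) and was not called in null oocytes against WT. Of the 2 muscle genes Fbxo32, which encodes atrogin-1, stayed at or under 0.755 FPKM and was not tested. Fbxo40 fell during WT growth from 17.1 and 21.8 FPKM to 9.78 and 7.72 FPKM (−1.07 ± 0.19, adjusted p = 0.00345, lost under both other scalings) and stood at 0.0757 and 0.210 FPKM in WT and 1.29 and 0.613 FPKM in null MII oocytes (0.75 ± 0.19, adjusted p = 0.0103). The last call was lost without WT MII library 1 or null MII library 1 (adjusted p up to 0.123).

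Among the other F-box genes, Fbxo33, Fbxo30 and Fbxo28 were lower in null oocytes at all 3 stages, with no overlap between genotypes at any stage. The share of all rows with this pattern was not counted, so that it does not set these 3 genes apart. Fbxo33, whose protein has been described as a receptor for the Y-box protein YB-1, was at 17.5 and 16.8 FPKM in WT and 9.86 and 12.3 FPKM in null growing oocytes (−0.59 ± 0.18, adjusted p = 0.0222), at 15.6 and 15.7 FPKM and 4.29 and 2.92 FPKM in GV (−1.87 ± 0.18, adjusted p = 3.09e-05) and at 6.98 and 7.33 FPKM and 2.12 and 2.87 FPKM in MII oocytes (−1.23 ± 0.18, adjusted p = 0.000231). Its WT GV mean was 4.34 times the null mean. Fbxo30 was at 65.9 and 66.3 FPKM and 41.7 and 31.7 FPKM in growing (−0.84 ± 0.18, adjusted p = 0.00384), 47.3 and 35.4 FPKM and 15.1 and 16.2 FPKM in GV (−1.33 ± 0.18, adjusted p = 0.000239) and 9.31 and 10.2 FPKM and 5.47 and 4.76 FPKM in MII oocytes (−0.81 ± 0.18, adjusted p = 0.00417). Fbxo28 was at 50.7 and 45.1 FPKM in WT and 30.002 and 32.8 FPKM in null GV oocytes (−0.59 ± 0.14, adjusted p = 0.00546) and at 10.7 and 11.2 FPKM and 4.24 and 4.38 FPKM at MII (−1.17 ± 0.14, adjusted p = 4.98e-05). The MII calls of these 3 genes, and the GV calls of Fbxo33 and Fbxo30, held with each library left out and under all 3 scalings. The growing call of Fbxo33 was lost without either WT growing library or null growing library 1 (adjusted p up to 0.135) and under both other scalings, and the GV call of Fbxo28 was lost under both. For Fbxo28 the interaction was negative (−0.58 ± 0.19, adjusted p = 0.0396), a steeper fall in null oocytes, and was lost without WT GV library 2, null GV library 2, either WT MII library or either null MII library (adjusted p up to 0.102).

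**Figure D5:**
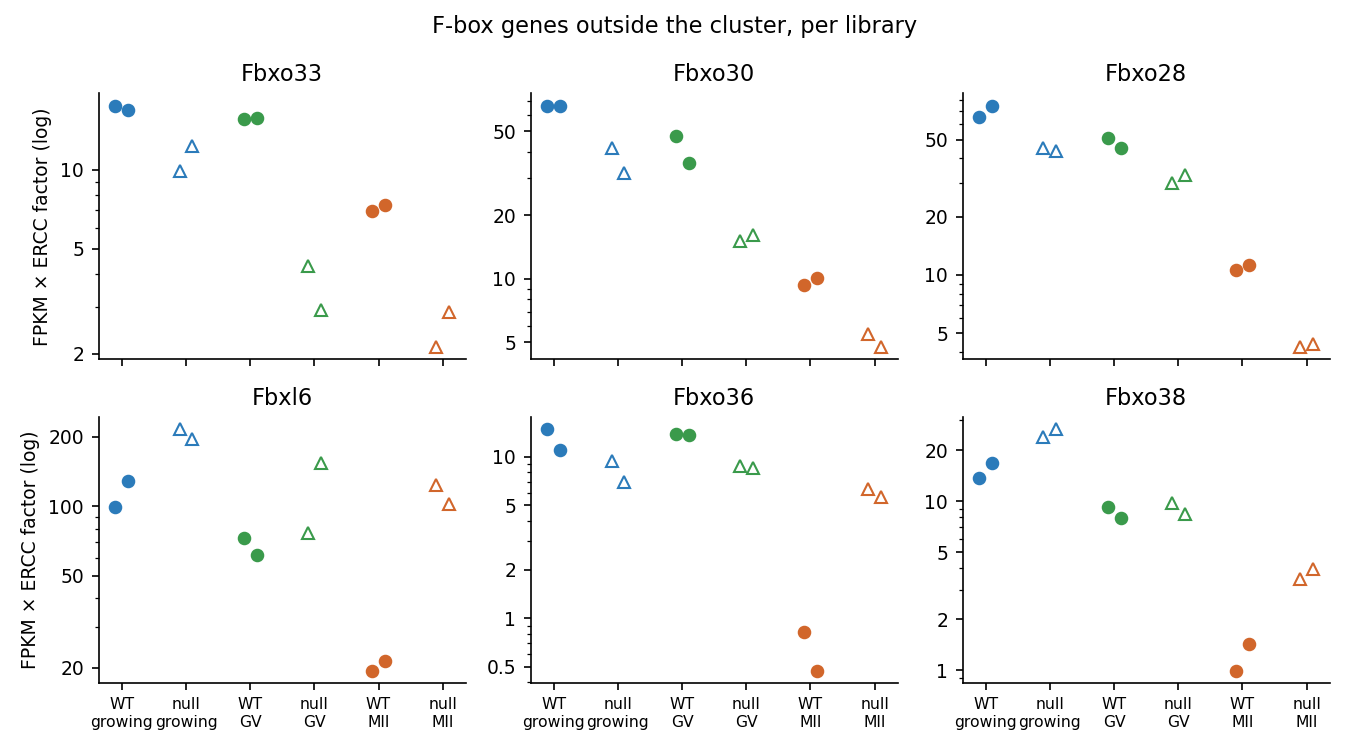
FPKM times the ERCC factor (log axes) in each library for 6 F-box genes outside the oocyte Fbxw genes. Filled circles are WT and open triangles null libraries, in blue for growing, green for GV and orange for MII oocytes. Fbxo33, Fbxo30 and Fbxo28 lie lower in null than in WT libraries at each stage, as in GV oocytes for Fbxo33 (15.6 and 15.7 FPKM in WT, 4.29 and 2.92 FPKM in null), and Fbxl6, Fbxo36 and Fbxo38 lie higher in null libraries at MII.

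In the other direction, Fbxl6 was at 19.4 and 21.3 FPKM in WT and 124 and 103 FPKM in null MII oocytes (2.41 ± 0.27, adjusted p = 3.97e-05), a mean 5.56 times as high. It was also higher in null growing oocytes, at 216 and 196 FPKM against 99.4 and 129 FPKM (0.86 ± 0.27, adjusted p = 0.0311), a call lost without either WT growing library or either null growing library (adjusted p up to 0.195). At the GV stage its null libraries stood apart, at 76.5 and 154 FPKM, beside 73.1 and 61.8 FPKM in WT. Of its GV mean Fbxl6 kept 30.2% in WT and 97.98% in null oocytes (interaction 1.73 ± 0.39, adjusted p = 0.00618), a call lost with equal medians. Fbxo36 had the largest interaction of the 64 genes (2.70 ± 0.25, adjusted p = 1.27e-05). It was at 13.9 and 13.7 FPKM in WT GV and 0.818 and 0.473 FPKM in WT MII oocytes, and at 8.79 and 8.52 FPKM in null GV and 6.29 and 5.64 FPKM in null MII oocytes, so that 4.68% was left in WT and 68.9% in null. Its MII level was higher in null oocytes (2.09 ± 0.18, adjusted p = 3.83e-06). Fbxo38, whose protein has been described as a receptor for PD-1, was at 0.997 and 1.43 FPKM in WT and 3.46 and 3.95 FPKM in null MII oocytes (1.09 ± 0.16, adjusted p = 0.000314). The MII calls of Fbxl6, Fbxo36 and Fbxo38, and the interaction of Fbxo36, held with each library left out and under all 3 scalings.

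Several F-box genes of low level differed before maturation. Fbxo16 was at 1.22 and 0.790 FPKM in WT and 3.77 and 3.61 FPKM in null growing oocytes (1.24 ± 0.15, adjusted p = 0.000128) and at 0.575 and 0.457 FPKM and 3.26 and 3.46 FPKM at the GV stage (1.52 ± 0.15, adjusted p = 3.84e-05). It was the 1 F-box gene higher in null GV oocytes, and its interaction was negative (−1.23 ± 0.21, adjusted p = 0.00118). Its WT GV level lay under the pseudocount of 1 FPKM, the shares of the GV mean left at MII were 12.3% in WT and 9.43% in null oocytes, and with a pseudocount of 0.1 FPKM the interaction was not called (adjusted p = 0.0707). Fbxl15, whose protein is a receptor for SMURF1, was at 1.01 and 0.515 FPKM in WT and 3.38 and 2.69 FPKM in null growing oocytes (1.20 ± 0.15, adjusted p = 0.000156), and Fbxw8, which works with the scaffold CUL7, at 3.39 and 4.53 FPKM and 7.94 and 12.5 FPKM (1.16 ± 0.20, adjusted p = 0.00137). The genotypes overlapped for none of these 3 genes, whose null versus WT calls held with each library left out and under all 3 scalings. Fbxw10, uncertain for its shared words, was at 1.77 and 1.37 FPKM in WT and 0.495 and 0.274 FPKM in null growing oocytes (−0.89 ± 0.13, adjusted p = 0.000470) and at 1.83 and 2.22 FPKM and 0.0757 and 0.138 FPKM at the GV stage (−1.45 ± 0.13, adjusted p = 2.52e-05). At MII it was at 0 and 0.0226 FPKM in WT and 0.0249 and 0.0481 FPKM in null oocytes. During WT growth Fbxo25 fell from 15.2 and 15.6 FPKM to 9.64 and 6.94 FPKM (−0.83 ± 0.16, adjusted p = 0.00502), a call lost under both other scalings. During WT maturation Fbxo46 fell from 11.9 and 10.04 FPKM to 0.270 and 0.528 FPKM (−3.10 ± 0.15, adjusted p = 5.43e-09).

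The partners of F-box proteins in the ligase (subunits, the NEDD8 cycle, the COP9 signalosome and chaperones) were read beside them, with 28 genes tested. Of these 3 were higher and 1 lower in null growing, 0 and 10 in null GV and 9 and 3 in null MII oocytes, with the backgrounds of rows given above. All 28 fell during WT maturation and 19 during null maturation. Skp1a, the adaptor, was at 3053 and 2213 FPKM in WT GV oocytes, a level overlapping that of Fbxw24. At MII it was at 788 and 856 FPKM in WT and 1080.4 and 984 FPKM in null oocytes (0.33 ± 0.19, adjusted p = 0.238). Cul1, the scaffold, was at 117 and 123 FPKM in WT and 137 and 145 FPKM in null MII oocytes (0.23 ± 0.16, adjusted p = 0.338), and neither was called. Rbx1, the RING subunit, was at 63.7 and 52.01 FPKM in WT and 123 and 95.996 FPKM in null MII oocytes without overlap and was called higher (0.91 ± 0.19, adjusted p = 0.00288). Past 3-fold in null MII oocytes were 5 of the 28, all higher, against 8.82% of rows in either direction, and they are named here after their values were seen. Nedd8, the modifier that activates cullins, was at 19.9 and 19.2 FPKM in WT and 199.6 and 175 FPKM in null MII oocytes (3.19 ± 0.15, adjusted p = 3.00e-08), a mean 9.59 times as high. The 4 others encode subunits of the COP9 signalosome, which removes NEDD8. Cops7a was at 2.13 and 2.30 FPKM and 29.1 and 24.5 FPKM (3.11 ± 0.20, adjusted p = 3.38e-07), a mean 12.1 times as high, and Cops6 at 0.394 and 0.467 FPKM and 5.55 and 3.93 FPKM (1.99 ± 0.17, adjusted p = 3.37e-06). Cops3 gave 1.59 ± 0.19 and Cops5 1.55 ± 0.21. All 5 were called with each library left out and under all 3 scalings. The subunits of the COP9 signalosome did not move together. By limma Gps1 was higher without passing 3-fold (1.49 ± 0.17, adjusted p = 4.98e-05), and Cops2 was lower (−0.79 ± 0.23, adjusted p = 0.0233). The Cops2 call held under both other scalings but not with each library left out. Cops4 (0.46), Cops7b (0.29) and Cops8 (−0.50) were not called, and Cops8 was called lower under both other scalings.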

How the data were processed

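RNA from 12 libraries of 10 oocytes each was measured by Smart-seq2 with ERCC spike-in. The authors deposited 1 table of FPKM for 23230 genes, made with TopHat 2.1.1 and Cufflinks 2.2.1 (per the submitters' processing notes) on mm9 with UCSC gene models, from uniquely mapped reads trimmed to 50 bases, and multiplied by a spike-in factor. The table holds no read counts, so that depth and counting error are unknown. On average 33.5% of the values of a library were listed at 0. The factors were recovered from the digits of the values. Groups came from the labels.

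The 11502 rows that reached 1 FPKM in any library were tested on log2(FPKM + 1) with limma 3.58.1 in R 4.3.3 (eBayes with trend, 6 group means over all 12 libraries, Benjamini-Hochberg over all rows, threshold 0.05, two-sided). The fit was tested on simulated data. Alternatives were no ERCC factors, equal library medians, a pseudocount of 0.1 FPKM, no filter, a mean of at least 5 FPKM, no trend, a replicate block, the 4 libraries compared alone, a 3-fold rule without a test and leaving out each library. Named genes were all oocyte Fbxw genes, the 8 others highest in WT GV oocytes, up to 4 others with the largest called change in each direction per comparison, and the function lists. A gene that met this rule is not reported here. The members and lists were chosen with earlier results of these data known. Sequence features came from the mm9 annotation and RefSeq promoters, read with Biopython 1.88.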

Additional observations from a re-analysis of the deposited data

Results flagged for a closer look

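The change from GV to MII differed between null and WT oocytes for 22 of the named genes, by the interaction term of the limma fit over all 12 libraries at an adjusted p under 0.05. The null minus WT difference in log2 change was, among the oocyte Fbxw genes, Fbxw13 1.94, Fbxw21 1.82, Fbxw18 1.65, Fbxw17 1.63, Fbxw19 1.28, Fbxw16 1.05, Fbxw14 0.99 and Fbxw28 0.93. Among the other F-box genes it was Fbxo36 2.70, Fbxl6 1.73, Fbxw10 1.48, Fbxo40 1.44, Fbxo7 1.28, Fbxw5 1.06, Fbxo38 1.02, Fbxw11 1.01, Fbxo34 0.83, Fbxo25 0.68, Fbxo11 0.68 and Fbxl21 0.66. It was negative for Fbxo16 −1.23 and Fbxo28 −0.58. Fbxo28 kept 22.8% of its GV mean at MII in WT and 13.7% in null oocytes. For Fbxo16 these shares were 12.3% and 9.43%, its WT GV level of 0.575 and 0.457 FPKM lay under the pseudocount of 1 FPKM, and at a pseudocount of 0.1 FPKM it was not called (adjusted p = 0.0707). Fbxw10 was already at 0.0757 and 0.138 FPKM in null GV oocytes, against 1.83 and 2.22 FPKM in WT, and at 0.0249 and 0.0481 FPKM in null MII oocytes, so that its value carries over the GV difference. Fbxl21 too was under 1 FPKM in null GV oocytes, at 0.553 and 0.541 FPKM. Fbxo11 averaged 45.8 FPKM in WT and 27.2 FPKM in null GV oocytes, but 17.1 and 16.3 FPKM at MII. Fbxo25 averaged 8.29 and 4.32 FPKM at the GV stage and 3.50 and 3.16 FPKM at MII. The positive values of Fbxo11 and Fbxo25 thus reflect a lower null GV level and not a higher null MII level. Fbxw10 and Fbxl21 were far under 1 FPKM at MII in both genotypes, where the log2(FPKM + 1) scale shows little of a difference. Fbxl21 averaged 0.181 FPKM in WT and 0.279 FPKM in null MII oocytes, and Fbxw10 was higher in null MII libraries too. The adjusted p ran from 1.27e-05 (Fbxo36) to 0.0455 (Fbxo11), and 33.9% of all rows had a positive difference past the threshold. On leaving out 1 library the call was lost for 10 of the 22, with the highest adjusted p being 0.0747 for Fbxl21 (without null MII library 1), 0.127 for Fbxo11 (without null MII library 2), 0.137 for Fbxo25 (without WT GV library 1), 0.102 for Fbxo28 (without null MII library 1), 0.0699 for Fbxo34 (without WT MII library 1), 0.0738 for Fbxo7 (without WT GV library 1), 0.0782 for Fbxw14 (without WT GV library 1), 0.0837 for Fbxw16 (without WT GV library 1), 0.122 for Fbxw28 (without WT GV library 1) and 0.0610 for Fbxw5 (without WT MII library 1).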

How the results depend on the processing

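Counts of F-box genes called moved as follows. Null against WT in growing oocytes gave 18, with 11 at equal medians, 10 at a mean of at least 5 FPKM (fewer genes tested) and 2 by the 3-fold rule. At the GV stage it gave 26, with 10 without ERCC factors, 8 at equal medians, 13 at the mean of 5 FPKM and 3 by 3-fold. At MII it gave 25, with 4 by 3-fold. WT growth gave 20, with 0 without factors, 0 at equal medians, 13 at the mean of 5 FPKM and 0 by 3-fold. WT maturation gave 63, with 38 at the mean of 5 FPKM and 30 by 3-fold, null maturation 42, with 22 by 3-fold, and the maturation difference 30, with 11 without factors and 10 at equal medians. Leaving out 1 library gave 10 to 21 in growing oocytes (10 without WT growing library 1, 11 without WT growing library 2, 10 without null growing library 2), 15 to 27 at the GV stage (15 without WT GV library 1), 18 to 26 at MII, 3 to 22 in WT growth (13 without WT growing library 1, 5 without WT growing library 2, 13 without WT GV library 1, 3 without WT GV library 2), 61 to 64 and 38 to 44 in WT and null maturation and 16 to 33 for the difference (18 without WT GV library 1, 19 without WT MII library 1, 16 without null MII library 1). Without Fbxw24, the gene of highest mean, the oocyte Fbxw share of the F-box FPKM was 88.7%, 90.1% and 81.6% in WT and 86.6%, 89.8% and 83.004% in null growing, GV and MII oocytes. The cause of these changes was not tested.

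Of 156 named changes, those that turned sign did so under another scaling. At equal medians the log2 change was for WT maturation Fbxw14 1.13, Fbxw19 0.059, Fbxw20 0.0015, Fbxw22 1.57, Fbxw24 0.55, Fbxw28 0.89, Fbxw4 1.27, Fbxo8 1.63, Fbxl6 0.96, Fbxo28 0.56, Fbxo11 1.25, Fbxl5 1.82, Fbxo15 1.46, Fbxo30 0.61, Fbxo33 1.49, Fbxo7 0.025, Fbxo25 1.33, Fbxw7 1.39, Fbxw11 0.88, Fbxw5 0.28, Fbxl4 1.68. It was for null maturation Fbxw14 1.16, Fbxw17 0.029, Fbxw18 0.011, Fbxw19 0.39, Fbxw24 0.28, Fbxw28 0.86, Fbxw4 1.08, Fbxo8 1.01, Fbxo11 0.99, Fbxo30 0.12, Fbxo36 1.12, Fbxo7 0.59, Fbxo38 0.41, Fbxw11 1.06. It was for the maturation difference Fbxw28 −0.032, Fbxo34 −0.10, Fbxo11 −0.26, Fbxo25 −0.19. It was for null against WT at the GV stage Fbxw24 0.010. Without ERCC factors it was for WT maturation Fbxw14 0.18, Fbxw22 0.63, Fbxw4 0.33, Fbxo8 0.69, Fbxl6 0.030, Fbxo11 0.33, Fbxl5 0.90, Fbxo15 0.61, Fbxo33 0.60, Fbxo25 0.48, Fbxw7 0.68, Fbxw11 0.026, Fbxl4 0.86. It was for null maturation Fbxw14 0.48, Fbxw28 0.18, Fbxw4 0.41, Fbxo8 0.34, Fbxo11 0.33, Fbxo36 0.49, Fbxw11 0.48. These scalings set the library total or median equal, and whether the RNA per oocyte did so was not tested. Calls that were lost without a change of sign numbered 51 without factors, 51 at equal medians, 12 with no filter, 16 with the 4 libraries compared alone and 7 at a pseudocount of 0.1 FPKM.

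The ERCC factors tie the replicate numbers, since each number was scaled to its own WT growing library, but no label ties a number to a litter or day and the replicate differences of pairs of groups correlated between −0.12 and 0.16. The fit without the block was therefore kept as the main one. With the replicate block the counts were 21, 31, 26, 22, 63, 44 and 33 in the order above, and none of the 156 calls of named genes was lost. Calls gained among the 42 named genes tested numbered 3, 3, 0, 2, 0, 2 and 2 in the same order. Those among the 13 oocyte Fbxw genes were 3 in growing and 3 in GV oocytes, 1 in null maturation (Fbxw22) and 2 for the difference. The crossed pairing at the GV stage, added after seeing the data, gave 34.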
